A study of Homo sapiens with 12 samples.

Results

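YAP1 and WWTR1 (also called TAZ), the transcriptional coactivators of the Hippo pathway, the DNA-binding factor TEAD1 that carries them, and 7 genes known as targets or regulators of the pathway were followed in 2 human breast cancer cell lines cultured with and without a plant extract. The 7 others were CCN1, CCN2, F3, ANKRD1, LATS2, AMOTL2 and AJUBA. The 10 genes were taken by symbol from a table of 19516 named genes. All were found there and all 10 were among the 14133 genes that passed the filter on low counts, each with reads in every one of the 12 libraries. The extract was an aqueous one of Kalanchoe pinnata, a succulent used in folk medicine, and migration of the cells was the study's stated interest. HCC1937 with extract (E31, E32 and E33) received 66 µg/mL for 72 h in RPMI and was set against HCC1937 control (E25, E26 and E27). MDA-MB-231 with extract (E7, E8 and E9) received 140 µg/mL for 72 h in DMEM and was set against MDA-MB-231 control (E1, E2 and E3). All 4 groups are labelled wild type. Both lines come from triple-negative tumours, and because line, medium and concentration changed together they cannot be told apart. Nothing in the labels says that the 3 libraries of a group came from separate cultures. The p-values therefore reflect how far libraries lay apart within groups, taken over all 4 groups, and that spread may be technical only.

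The Hippo pathway is a kinase cascade in which STK3 and STK4 activate LATS1 and LATS2, and the LATS kinases phosphorylate YAP1 and WWTR1 so that these stay in the cytoplasm. When the kinases are inactive, as in spread cells under tension, the coactivators enter the nucleus and bind TEAD factors, which have the DNA-binding domain that the coactivators lack. The pathway acts mostly on the phosphorylation and location of YAP1 and WWTR1, which transcript levels do not show. Some targets feed back on it, among them LATS2 itself and AMOTL2, which holds YAP1 at cell junctions.

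Libraries held 16170545 to 31337431 counts. Spearman correlations between libraries of a group were at least 0.9968, except that E7 reached 0.967 with E8 and 0.966 with E9. E7 had 10.7% of its counts in mitochondrially encoded genes, where the other 11 libraries had 2.76% to 4.78%, so values of MDA-MB-231 with extract are also given without E7 where that matters. The coefficient of variation that edgeR estimates between libraries was 0.296 in MDA-MB-231 with extract. In the other groups it was 0.0409 to 0.0449. Each gene has 1 estimate of spread over all 4 groups, so the spread of E7 also enters the SEs and p-values of HCC1937 and of the controls. The epithelial cadherin CDH1 had 118 to 191 CPM (the CPM unit of edgeR, counts relative to the library size scaled by TMM) in HCC1937 libraries and no reads in any MDA-MB-231 library. The mesenchymal filament VIM had 2.53 to 14.4 CPM in HCC1937 libraries and 3454 to 5890 CPM in MDA-MB-231 libraries. Of the other mesenchymal markers looked at, ZEB1 and FN1 also had the lower group means in HCC1937, and SPARC went the other way. SPARC averaged 55.1 CPM in HCC1937 with extract and 39.1 in HCC1937 control, against 7.74 in MDA-MB-231 with extract and 8.64 in MDA-MB-231 control. Across all genes, folds with extract fell with transcript length. Among 1196 tested genes with transcripts over 8 kb the median log2 fold change was -1.21 in HCC1937 and -0.97 in MDA-MB-231, and among 2421 genes of 1 to 2 kb it was 0.48 and 0.55 in that order. TEAD1 has the longest transcript of the 10 genes, 8477 nt at 41.3% GC, and YAP1, WWTR1 and LATS2 follow with 5398, 5030 and 5511 nt. AMOTL2 and AJUBA have 4521 and 4262 nt, and CCN1, CCN2, F3 and ANKRD1 only 1979 to 2339 nt. Results are therefore given with a length and GC offset as well (values named as with the offset), which removes a smooth trend of counts with transcript length and GC content from each library.

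The promoters of 8 of the 10 genes, all but TEAD1 and CCN1, were matched in RefSeq (GRCh38.p14), as 250 bases before to 50 after the transcript start. The core of the TEAD site, GGAATG, was searched on both strands, and the AP-1 site, TGANTCA, which is its own reverse complement. GGAATG was found in 4 of the 8 (CCN2, ANKRD1, YAP1 and LATS2), against 14.0% of 35116 promoters of the same length. TGANTCA was found in 2 of the 8 (F3 and ANKRD1), against 7.71% of all promoters. CCN2 held 3 GGAATG matches, the last pair of them 3 bases apart, from -104 to -99 and from -95 to -90 relative to the start. ANKRD1 held GGAATG at -220 and -128 and TGANTCA at -195, while F3 held no GGAATG and 2 TGANTCA matches, at -223 and -210. YAP1 had a match at -162 and LATS2 at 10, past the start, and no match to either motif was found in WWTR1, AMOTL2 or AJUBA. The window searched for WWTR1, chr3:149703224-149703523 on the minus strand, lies inside the gene. The sequence at its 5′ end, 149736714, was not searched. The 3 promoters below are those of the targets whose responses to extract are set against each other further on, on the minus strand and read 5′ to 3′, with motif matches in capitals. They lie at chr6:131951323-131951622 (CCN2), chr10:90921038-90921337 (ANKRD1) and chr1:94541710-94542009 (F3). A match is a description of these letters and not a bound site.
CCN2: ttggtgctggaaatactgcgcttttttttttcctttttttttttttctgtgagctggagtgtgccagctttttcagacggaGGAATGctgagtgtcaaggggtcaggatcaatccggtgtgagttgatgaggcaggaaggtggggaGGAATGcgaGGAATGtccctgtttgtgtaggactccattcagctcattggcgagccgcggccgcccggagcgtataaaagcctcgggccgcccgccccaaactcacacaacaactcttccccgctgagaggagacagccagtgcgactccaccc
ANKRD1: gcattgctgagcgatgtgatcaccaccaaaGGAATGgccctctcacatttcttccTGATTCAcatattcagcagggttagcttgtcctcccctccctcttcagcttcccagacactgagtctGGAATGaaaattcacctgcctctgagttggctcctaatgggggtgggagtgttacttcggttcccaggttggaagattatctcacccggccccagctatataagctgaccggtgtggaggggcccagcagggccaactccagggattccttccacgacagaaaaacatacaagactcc
F3: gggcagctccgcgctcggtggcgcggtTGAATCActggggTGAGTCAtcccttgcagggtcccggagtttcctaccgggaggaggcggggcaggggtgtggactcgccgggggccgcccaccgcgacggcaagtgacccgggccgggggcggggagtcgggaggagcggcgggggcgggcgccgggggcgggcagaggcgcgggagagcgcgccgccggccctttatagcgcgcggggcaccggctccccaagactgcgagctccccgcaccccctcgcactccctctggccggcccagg

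**Figure D1:**
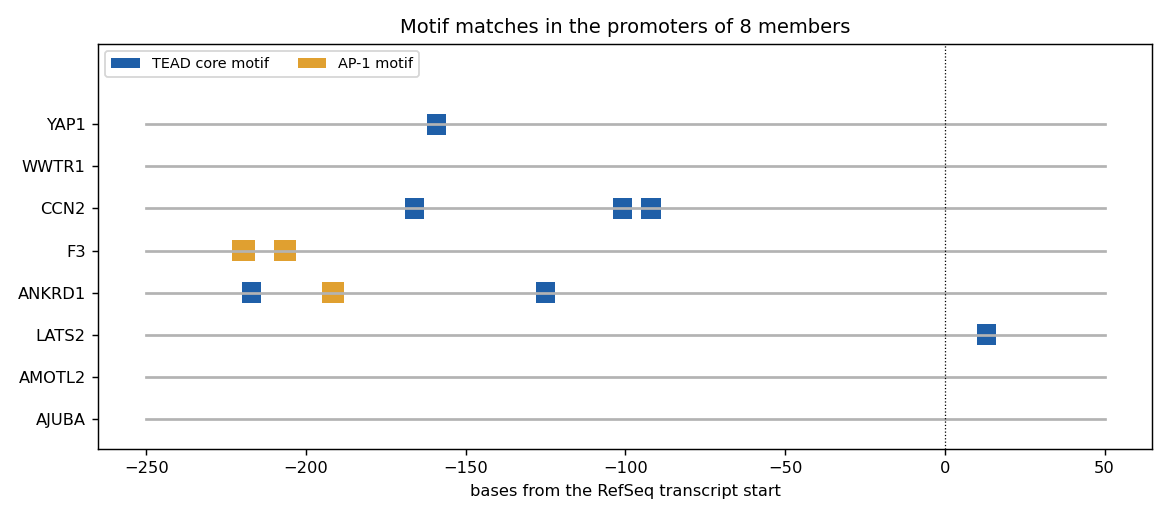
Matches to the TEAD core motif (blue) and the AP-1 motif (orange) in the promoters of 8 members; the horizontal axis gives bases from the RefSeq transcript start (dotted line). CCN2 and ANKRD1 carry 3 and 2 TEAD core matches upstream of the start, and F3 carries AP-1 matches and no TEAD core match.

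The coactivators and TEAD1 fell with extract in both lines, TEAD1 the most of these 3, although with the offset WWTR1 rose in HCC1937 and YAP1 was not called in MDA-MB-231. YAP1 (Entrez 10413; GRCh38 chromosome 11, 102110461 to 102233423) had 78.9, 87.7 and 82.9 CPM in HCC1937 with extract and 174, 192 and 193 CPM in HCC1937 control. In MDA-MB-231 it had 86.3 (E7), 122 and 118 CPM with extract, against 156, 157 and 164 CPM in control. The groups did not overlap in either line, and E7 was the lowest of MDA-MB-231. The log2 fold change of YAP1 was -1.16 ± 0.12 in HCC1937 (SE; 2.24-fold lower, edgeR adjusted p = 3.3e-06) and -0.55 ± 0.12 in MDA-MB-231 (1.46-fold lower, adjusted p = 0.00153; -0.40 without E7). With the offset YAP1 was at -0.26 ± 0.06 in HCC1937 (edgeR adjusted p = 0.0019), and in MDA-MB-231 its call ended at 0.05 ± 0.06 (adjusted p = 0.517).

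WWTR1 (Entrez 25937; chromosome 3, 149517235 to 149736714), the paralog of YAP1, had 93, 97.1 and 88.9 CPM in HCC1937 with extract, against 129, 133 and 136 CPM in HCC1937 control. MDA-MB-231 libraries held 57.7, 63.8 and 65 CPM with extract and 159, 153 and 161 CPM in control, and E7 lay close to E8 and E9. WWTR1 fell by 0.51 ± 0.07 on the log2 scale in HCC1937 (SE; edgeR adjusted p = 5.65e-05), a fall that turned with the offset into a rise of 0.80 ± 0.05 (adjusted p = 2.88e-08). In MDA-MB-231 it fell 2.53-fold (-1.34 ± 0.07, edgeR adjusted p = 3.12e-08), and the fall passed with the offset too, at -0.39 ± 0.05 (adjusted p = 1.63e-05). Per length of transcript, the level of YAP1 relative to WWTR1 was 0.834 ± 0.0399 in HCC1937 with extract against 1.31 ± 0.0473 in HCC1937 control, and 1.62 ± 0.205 in MDA-MB-231 with extract against 0.942 ± 0.0218 in MDA-MB-231 control (SD, n = 3). So the coactivator with the higher level per length was WWTR1 in HCC1937 with extract and in MDA-MB-231 control, and YAP1 in the other groups. These ratios take the longest transcript of each gene and carry no offset. In MDA-MB-231 control the mean CPM, not divided by length, was 159 for YAP1 and 158 for WWTR1, so the order there rests on the lengths taken.

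TEAD1 (Entrez 7003; chromosome 11, 12674591 to 12944483), which binds the GGAATG core, had 17.2, 15.7 and 17.3 CPM in HCC1937 with extract, against 84.1, 96.5 and 90.2 CPM in HCC1937 control. Its values in MDA-MB-231 were 34.4 (E7), 70.4 and 69.5 CPM with extract and 211, 221 and 224 CPM in control. No extract library reached the controls of its line, and E7 lay well under E8 and E9. TEAD1 fell 5.38-fold in HCC1937 (log2 fold change -2.43 ± 0.22, SE; edgeR adjusted p = 1.08e-06) and 3.75-fold in MDA-MB-231 (-1.91 ± 0.21, adjusted p = 8.69e-06; -1.64 without E7). With the offset TEAD1 was at -0.91 ± 0.12 in HCC1937 and -0.61 ± 0.12 in MDA-MB-231, still called in both (edgeR adjusted p = 2.87e-05 and 0.00053).

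**Figure D2:**
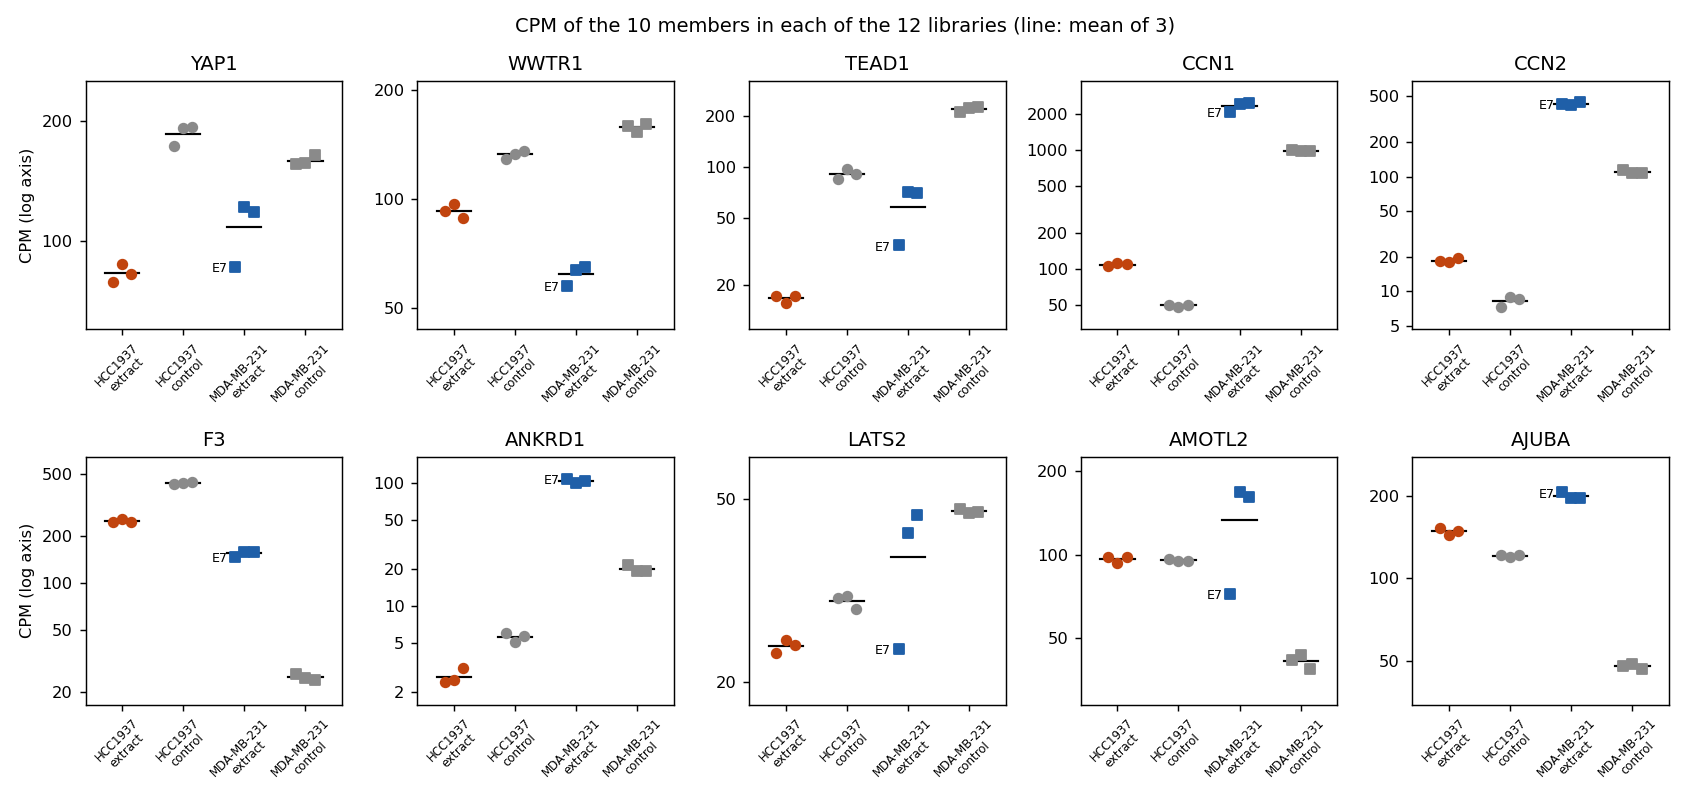
CPM (log axis) of each of the 10 genes in each of the 12 libraries, by line and treatment, with the mean of 3 libraries as a line. Circles are HCC1937 and squares MDA-MB-231, colour marks extract and grey control, and E7 lies apart from E8 and E9 for YAP1, TEAD1, LATS2 and AMOTL2.

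CCN1 and CCN2, the secreted matricellular proteins CYR61 and CTGF, are the most used readouts of YAP1 and TEAD activity, and both rose with extract in both lines. CCN1 (Entrez 3491; chromosome 1, 85580761 to 85583962) had 105, 112 and 110 CPM in HCC1937 with extract and 50.6, 48.3 and 50.4 CPM in HCC1937 control. MDA-MB-231 libraries held 2069 (E7), 2413 and 2457 CPM with extract, against 987, 969 and 970 CPM in control. The level of CCN1 thus differed far more between the lines than between treatments, and every extract library lay above the controls of its line. CCN1 rose 2.19-fold in HCC1937 (log2 fold change 1.13 ± 0.09, SE; edgeR adjusted p = 2.55e-07) and 2.37-fold in MDA-MB-231 (1.25 ± 0.09, adjusted p = 1.57e-07). With the offset these were 0.61 ± 0.10 and 0.72 ± 0.09, still called (edgeR adjusted p = 0.000103 and 2.23e-05).

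CCN2 (Entrez 1490; chromosome 6, 131948176 to 131951373), whose promoter is shown above, had 18.3, 17.8 and 19.3 CPM in HCC1937 with extract, against 7.22, 8.84 and 8.58 CPM in HCC1937 control. In MDA-MB-231 it had 430, 424 and 442 CPM with extract and 114, 107 and 108 CPM in control. E7 did not stand apart for CCN2, and no groups overlapped. CCN2 rose 2.25-fold in HCC1937 (log2 fold change 1.17 ± 0.09, SE; edgeR adjusted p = 2.39e-07) and 3.95-fold in MDA-MB-231 (1.98 ± 0.08, adjusted p = 4.47e-09). With the offset the rises were 0.58 ± 0.08 and 1.41 ± 0.07 (edgeR adjusted p = 5.16e-05 and 7.05e-09).

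F3 and ANKRD1 moved in opposite directions in the lines: both fell in HCC1937 and rose in MDA-MB-231. F3 (Entrez 2152; chromosome 1, 94529225 to 94541800) encodes tissue factor, the membrane receptor that starts blood clotting. It had 246, 259 and 247 CPM in HCC1937 with extract, against 433, 438 and 448 CPM in HCC1937 control. MDA-MB-231 libraries held 148, 160 and 159 CPM with extract and 26, 24.7 and 24.1 CPM in control. F3 therefore stood higher in both HCC1937 groups than in either MDA-MB-231 group, with no overlap between any 2 of the 4 groups. It fell 1.75-fold in HCC1937 (log2 fold change -0.81 ± 0.07, SE; edgeR adjusted p = 6.62e-07) and rose 6.23-fold in MDA-MB-231 (2.64 ± 0.07, adjusted p = 4.41e-10). With the offset F3 was at -0.51 ± 0.10 and 2.62 ± 0.11, on the same sides and called (edgeR adjusted p = 0.000557 and 1.06e-09).

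ANKRD1 (Entrez 27063; chromosome 10, 90912096 to 90921276) encodes CARP, an ankyrin repeat protein of the nucleus and, in muscle, of the sarcomere. It had 2.39, 2.49 and 3.13 CPM in HCC1937 with extract and 6.07, 5.08 and 5.70 CPM in HCC1937 control. Its values in MDA-MB-231 were 109, 102 and 105 CPM with extract, against 21.5, 19.4 and 19.5 CPM in control. ANKRD1 was scarce in HCC1937, with 204 reads over the 3 extract libraries and 474 over the 3 controls, yet these groups did not overlap. The gene fell 2.1-fold in HCC1937 (log2 fold change -1.07 ± 0.12, SE; edgeR adjusted p = 7.7e-06) and rose 5.22-fold in MDA-MB-231 (2.38 ± 0.11, adjusted p = 5.44e-09). With the offset it was at -0.78 ± 0.16 and 2.33 ± 0.12 (edgeR adjusted p = 0.000832 and 9.11e-09). CCN2 and ANKRD1, which both carry more than 1 TEAD core match, moved the same way in MDA-MB-231 and opposite ways in HCC1937. F3 and ANKRD1, which both carry an AP-1 match, moved the same way as each other in each line. AJUBA and AMOTL2, with no match to either motif, also rose in MDA-MB-231. YAP1 and LATS2, which carry GGAATG, were not called higher in either line without the offset. A link between motif matches and responses was not tested.

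Of the 3 members that act on the kinase step, AJUBA and AMOTL2 rose in MDA-MB-231 and LATS2 did not pass in either line. AJUBA (Entrez 84962; chromosome 14, 22971174 to 22982642) is a LIM protein of cell junctions that binds and restrains LATS kinases. It had 153, 144 and 149 CPM in HCC1937 with extract, against 122, 119 and 122 CPM in HCC1937 control. MDA-MB-231 libraries held 206, 196 and 197 CPM with extract and 47.8, 48.8 and 46.7 CPM in control. AJUBA rose 4.18-fold in MDA-MB-231 (log2 fold change 2.06 ± 0.07, SE; edgeR adjusted p = 7.61e-10), and with the offset the rise was 1.83 ± 0.12 (adjusted p = 6.23e-08). In HCC1937 it rose 1.23-fold (0.30 ± 0.06, edgeR adjusted p = 0.0013), but turned to -0.07 ± 0.12 with the offset (adjusted p = 0.616) and to -0.15 ± 0.09 on library totals (adjusted p = 0.151), neither called.

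AMOTL2 (Entrez 51421; chromosome 3, 134355874 to 134375479), an angiomotin that tethers YAP1 and promotes its phosphorylation, had 98, 92.9 and 97.8 CPM in HCC1937 with extract and 96.5, 94.5 and 94.9 CPM in HCC1937 control, and these groups overlapped. In MDA-MB-231 it had 72 (E7), 168 and 162 CPM with extract, against 41.5, 43.2 and 38.6 CPM in control. E7 held less than either other extract library and still lay above the controls. AMOTL2 rose 3.26-fold in MDA-MB-231 (log2 fold change 1.71 ± 0.24, SE; edgeR adjusted p = 6.41e-05; 2.01 without E7 and 1.36 with the offset). In HCC1937 it was at 0.01 ± 0.23 (edgeR adjusted p = 0.973), at -0.44 on library totals, not called, and at -0.46 ± 0.12 with the offset, where it was called lower (adjusted p = 0.00513).

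LATS2 (Entrez 26524; chromosome 13, 20973032 to 21061547), the kinase that phosphorylates YAP1 and WWTR1, had 23.2, 24.7 and 24.1 CPM in HCC1937 with extract and 30.5, 30.9 and 28.9 CPM in HCC1937 control. MDA-MB-231 libraries held 23.7 (E7), 42.2 and 46.2 CPM with extract, against 47.7, 46.8 and 47 CPM in control. The extract libraries lay below the controls in both lines, in MDA-MB-231 by little except for E7. LATS2 was at -0.33 ± 0.18 in both lines on the log2 scale (SE; edgeR adjusted p = 0.132 in HCC1937 and 0.133 in MDA-MB-231). With the offset LATS2 was called lower in both, at -0.50 ± 0.08 in HCC1937 and -0.47 ± 0.08 in MDA-MB-231 (edgeR adjusted p = 0.000115 and 0.000172). It was also called in HCC1937 when the fit held that line alone (-0.27, adjusted p = 0.000831) and on library totals (-0.78, adjusted p = 0.0157). In MDA-MB-231 it was called without E9 (-0.50, edgeR adjusted p = 0.0313), and stood at -0.09 without E7 (adjusted p = 0.228).

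Extract against control in HCC1937 thus gave 3 members higher, 5 lower and 2 not passing, where 32.7% of all tested genes were higher and 39.1% lower at the same threshold, an adjusted p under 0.05. In MDA-MB-231 6 members were higher, 3 lower and 1 did not pass, against 33% of tested genes higher and 32.8% lower. The median log2 fold change of the 10 members was -0.42 in HCC1937 and 1.48 in MDA-MB-231, beside -0.19 and 0.01 over all tested genes with reads in that line. The members were chosen with earlier results of these data known, so these shares are a description. With the offset 3 members were higher and 6 lower in HCC1937, against 30.5% and 36.8% of tested genes. Their median was -0.36, beside -0.12 over all tested genes with reads in that line. In MDA-MB-231 6 members were then higher and 3 lower, against 31.6% and 33.4% of tested genes. Their median was 1.04, beside -0.04 over all tested genes with reads in that line. The medians over all tested genes given here also apply to the lists of other pathway genes below. YAP1 was then not called and LATS2 called lower in MDA-MB-231, and in HCC1937 WWTR1 was called higher, LATS2 and AMOTL2 lower, and AJUBA not called. Scaling by library totals in place of TMM lowered the median fold of all tested genes from -0.16 to -0.61 in HCC1937 and from 0 to -0.26 in MDA-MB-231, so each fold here is a change relative to the remaining genes.

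**Figure D3:**
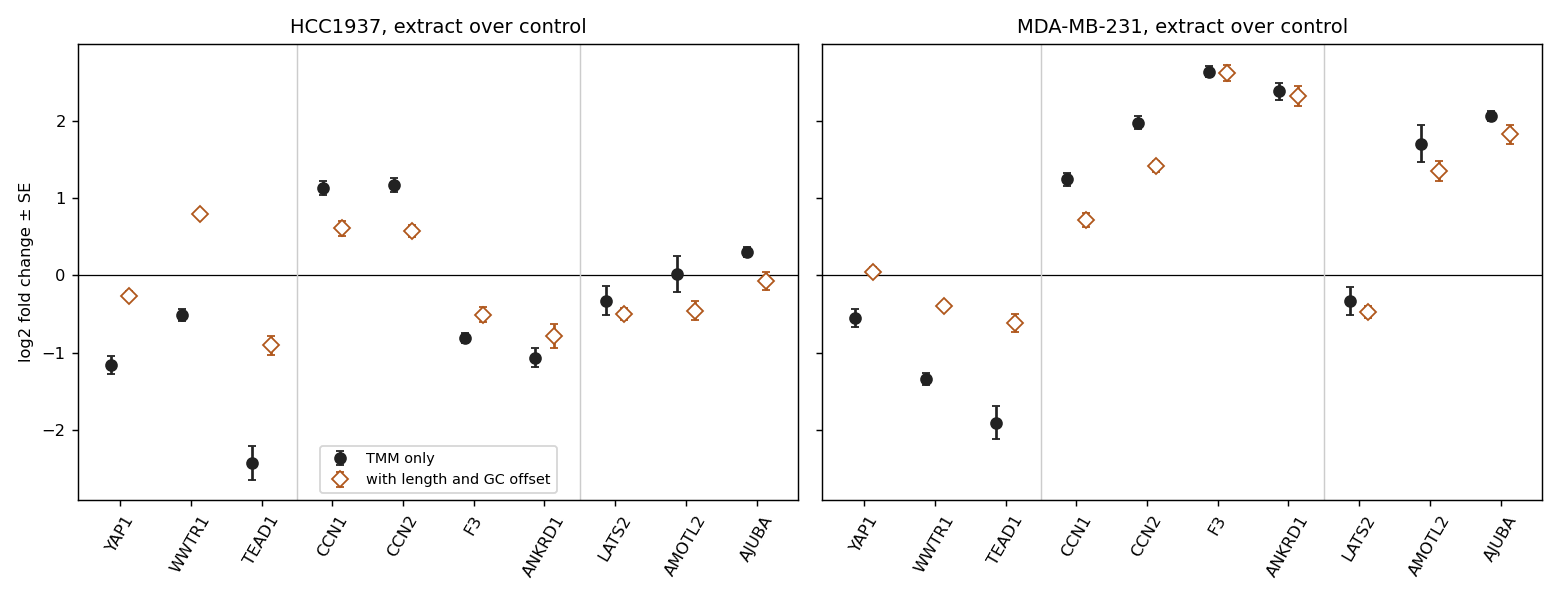
Log2 fold change of extract over control (± SE, edgeR) for the 10 genes in HCC1937 and MDA-MB-231, without (filled circles) and with (open diamonds) the length and GC offset; grey lines part the coactivators and TEAD1, the targets CCN1, CCN2, F3 and ANKRD1, and the LATS regulators. F3 and ANKRD1 lie below 0 in HCC1937 and at 2.38 or more without the offset in MDA-MB-231, and WWTR1 in HCC1937 changes side with the offset.

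**Figure D4:**
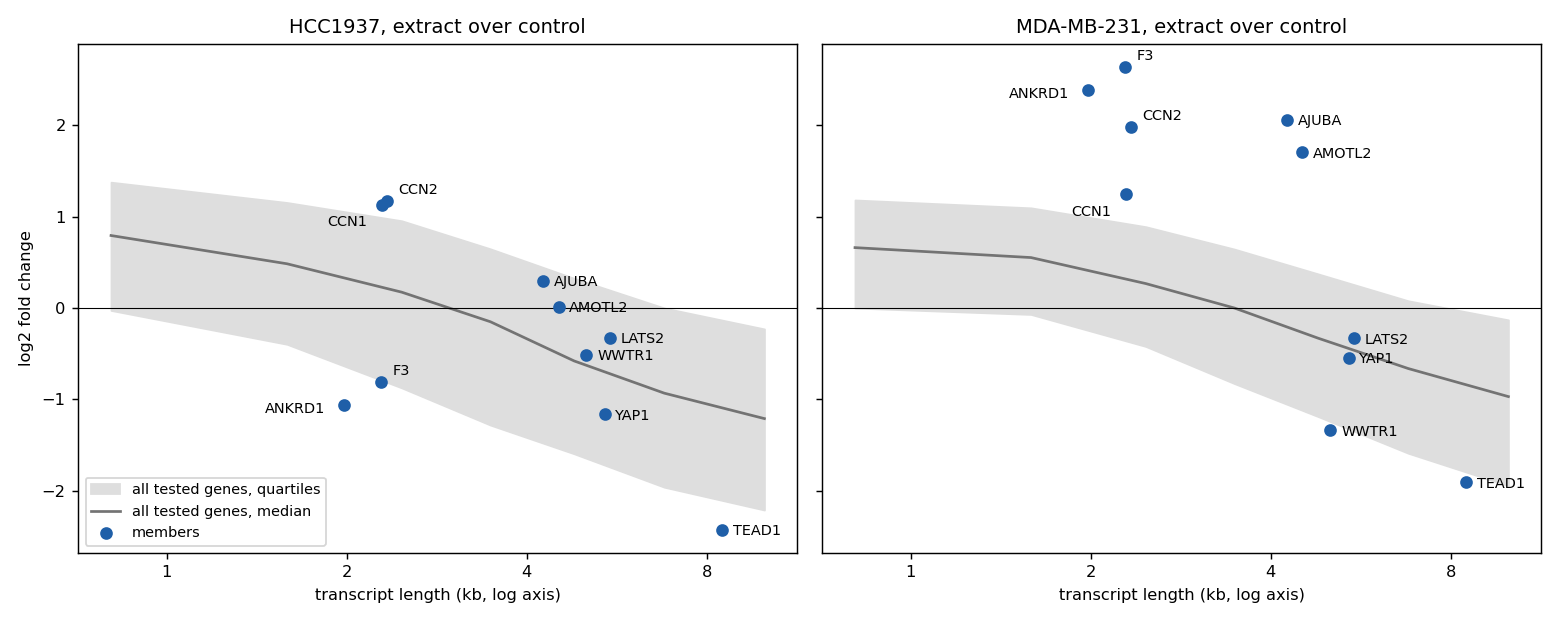
Log2 fold change of extract over control against transcript length (kb, log axis) for the 10 genes (points), with the median (line) and quartiles (band) of all tested genes by length class. In MDA-MB-231 the 6 members that rose lie above the quartile band and TEAD1, WWTR1, YAP1 and LATS2 lie close to it or inside it; in HCC1937 CCN1 and CCN2 lie just above it and TEAD1 and ANKRD1 below.

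The difference between the extract effects, HCC1937 minus MDA-MB-231, was tested as an interaction, with the concentrations differing as given above. It was called for 7 of the 10 members, 1 of them higher and 6 lower, where 11.5% of tested genes were higher and 20.6% lower. ANKRD1 and F3 had the largest differences of the 10, each with a log2 difference of -3.45 (SE 0.16 and 0.10; edgeR adjusted p = 9.83e-08 and 1.9e-09). AJUBA followed at -1.77 ± 0.09 (edgeR adjusted p = 2.74e-07) and AMOTL2 at -1.69 ± 0.33 (adjusted p = 0.00258). CCN2 rose less in HCC1937 (-0.81 ± 0.12, edgeR adjusted p = 0.000427), and CCN1 did not pass at -0.11 ± 0.12 (adjusted p = 0.518). The coactivators went opposite ways: YAP1 fell more in HCC1937 (-0.62 ± 0.17, edgeR adjusted p = 0.0152) and WWTR1 fell less there (0.83 ± 0.10, adjusted p = 0.000137). TEAD1 (-0.52 ± 0.29, edgeR adjusted p = 0.204) and LATS2 (0.00 ± 0.26, adjusted p = 1) did not pass. Without E7, 9 members were called lower and 1 higher, since TEAD1 (-0.77 ± 0.08, edgeR adjusted p = 2.92e-09), CCN1 (-0.17 ± 0.05, adjusted p = 0.00372) and LATS2 (-0.21 ± 0.09, adjusted p = 0.0475) then passed. Their SEs were smaller in that fit. The share of all tested genes called without E7 was not counted, so this count is not a result about the members. With the offset the same 7 members were called with the same signs, 1 higher and 6 lower, against 18.0% and 21.4% of tested genes, with F3 at -3.13 and ANKRD1 at -3.11.

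Without extract the lines differed most in the targets. In HCC1937 control against MDA-MB-231 control, 3 members were higher, 6 lower and 1 did not pass, where 38.7% of tested genes were higher and 36.7% lower. CCN1 was 19.6-fold lower in HCC1937 (log2 fold change -4.29 ± 0.10, SE; edgeR adjusted p = 1.76e-11) and CCN2 13.3-fold lower (-3.74 ± 0.09, adjusted p = 3.2e-11), while F3 was 17.6-fold higher (4.14 ± 0.08, adjusted p = 7.52e-12). ANKRD1 was lower (-1.84 ± 0.11, edgeR adjusted p = 2.58e-08), as were TEAD1 (-1.28 ± 0.21, adjusted p = 0.000146) and LATS2 (-0.65 ± 0.18, adjusted p = 0.00693). AJUBA (1.34 ± 0.07, edgeR adjusted p = 5.16e-09) and AMOTL2 (1.21 ± 0.24, adjusted p = 0.000626) were higher in HCC1937. The coactivators differed least, with WWTR1 at -0.25 ± 0.07 (edgeR adjusted p = 0.00922) and YAP1 at 0.23 ± 0.12, which did not pass (adjusted p = 0.0999) although its groups did not overlap. With the offset 4 members were higher and 6 lower, against 38.7% and 42.3% of tested genes. YAP1 was the member gained, called higher in HCC1937 at 0.15 (edgeR adjusted p = 0.0294), and it was also called when only the controls were fitted (0.19, adjusted p = 0.000252). The call of WWTR1 ended on library totals (-0.20, adjusted p = 0.177).

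Levels of different genes were compared as CPM per kb of transcript. CCN1 was the highest of the 10 in both MDA-MB-231 groups, at 1010 ± 92.6 with extract and 426 ± 4.53 in control (SD, n = 3). In HCC1937 it was F3 that was highest, at 110 ± 3.27 with extract and 192 ± 3.43 in control. The lowest were ANKRD1 in both HCC1937 groups, at 1.35 ± 0.203 with extract and 2.84 ± 0.252 in control, LATS2 in MDA-MB-231 with extract at 6.78 ± 2.18, beside TEAD1 at 6.85 ± 2.42, which did not differ from it beyond their spread, and LATS2 in MDA-MB-231 control at 8.56 ± 0.0894, close under AMOTL2 at 9.09 ± 0.516. The level of CCN1 relative to CCN2 was 6.03 ± 0.345 in HCC1937 with extract and 6.24 ± 0.817 in HCC1937 control, a difference within the spread, and 5.47 ± 0.482 in MDA-MB-231 with extract against 9.10 ± 0.198 in MDA-MB-231 control. In order of level across the 4 groups, CCN1, CCN2 and ANKRD1 ran from MDA-MB-231 with extract to MDA-MB-231 control and then to the HCC1937 groups. F3 ran from HCC1937 control to HCC1937 with extract and then to MDA-MB-231 with extract and control, and among the 10 genes it alone had all HCC1937 libraries above all those of MDA-MB-231.

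The other genes around these factors were taken from 3 lists. Of 7 TEAD partners (the other TEAD factors and the VGLL cofactors that compete for TEAD), VGLL2 had no reads in any library and 6 were tested. In HCC1937 2 rose, 1 fell and 3 did not pass, with a median log2 fold change of 0.26, where 32.7% of all tested genes were higher and 39.1% lower. With the offset 1 was higher and 3 lower there, against 30.5% and 36.8% of tested genes. The median turned to -0.31, since TEAD3 (-0.39) and VGLL1 (-1.07) were then called lower and TEAD2 was not called. In MDA-MB-231 3 rose and 2 fell, against 33% and 32.8% of tested genes, and VGLL1 had no reads. With the offset 2 were higher and 1 lower in that line, against 31.6% and 33.4% of tested genes, and the median turned to -0.04 from 0.48. The list is small, and its counts were not tested against these shares. TEAD4 rose in both lines while TEAD1 fell: it had 163, 166 and 174 CPM in HCC1937 with extract, against 32, 32.9 and 29.5 CPM in HCC1937 control, and 127, 103 and 96.2 CPM in MDA-MB-231 with extract, against 33.4, 30 and 30.2 CPM in MDA-MB-231 control. The log2 fold change of TEAD4 was 2.41 ± 0.11 in HCC1937 (SE; edgeR adjusted p = 5.44e-09) and 1.80 ± 0.11 in MDA-MB-231 (adjusted p = 5.49e-08), or 1.38 and 0.92 with the offset, called in both. TEAD2 rose as well (1.03 in HCC1937 and 0.61 in MDA-MB-231, edgeR adjusted p = 2.03e-05 and 0.00116), but was not called with the offset in either line and was then at -0.04 in MDA-MB-231. VGLL3 fell in HCC1937 (-2.82, edgeR adjusted p = 1.17e-07; -0.67 with the offset) and in MDA-MB-231 (-1.42, adjusted p = 0.000106), where the offset turned it to 0.60 (adjusted p = 0.00849). VGLL4, a repressor of TEAD, fell in MDA-MB-231 (-0.98, edgeR adjusted p = 0.0192) but did not pass when that line was fitted alone (adjusted p = 0.0834). It was called lower with the offset (-1.36, edgeR adjusted p = 0.00041) and without E7 (-0.60, adjusted p = 4.59e-09).

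Without the offset, more transcripts of the kinase cassette and its upstream regulators fell than rose. Of 19, 2 rose, 13 fell and 4 did not pass in HCC1937, with a median log2 fold change of -1.08, and 3 rose, 11 fell and 5 did not pass in MDA-MB-231, with a median of -0.51. Over all tested genes 32.7% were higher and 39.1% lower in HCC1937, and 33% and 32.8% in MDA-MB-231. With the offset these counts became 5 higher and 7 lower in HCC1937 (median -0.003) and 7 higher and 7 lower in MDA-MB-231 (median 0.07), where 30.5% and 36.8% of all tested genes were higher and lower in HCC1937 and 31.6% and 33.4% in MDA-MB-231. The counts with the offset lie near these shares. STK3, the MST2 kinase that opens the cascade, fell in both lines (-1.65 in HCC1937 and -1.38 in MDA-MB-231, edgeR adjusted p = 1.04e-08 and 7.73e-08; -0.37 and -0.62 with the offset). LATS1 fell in HCC1937 (-2.18, edgeR adjusted p = 1.23e-08; -0.46 with the offset). In MDA-MB-231 it fell as well (-1.12, edgeR adjusted p = 3.3e-06), but with the offset it was called higher there, at 0.36 (adjusted p = 0.00278). The kinase TAOK3, which can phosphorylate STK3 and STK4, fell in HCC1937 (-2.16, edgeR adjusted p = 4.41e-08; -1.58 with the offset) and in MDA-MB-231 (-1.96, adjusted p = 1.23e-07; -1.69 with the offset). Among the rises, WWC1 (KIBRA), a scaffold that activates LATS kinases, was at 0.60 in HCC1937 and 1.27 in MDA-MB-231 (edgeR adjusted p = 0.00652 and 4.19e-05). NF2 (merlin), which brings LATS kinases to the membrane, rose in HCC1937 (0.77, edgeR adjusted p = 0.000907; 0.48 with the offset), and neither it nor WWC1 passed there on library totals (adjusted p = 0.209 and 0.589). NF2 was also called higher in MDA-MB-231 (0.52, edgeR adjusted p = 0.0167; 0.34 with the offset), where its groups overlapped. WTIP, a LIM protein related to AJUBA, rose in MDA-MB-231 (1.33, edgeR adjusted p = 1.87e-05). AMOT was counted as lower in HCC1937 on 8 reads over the 3 controls and none with extract.

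A further 15 genes of a published YAP and TAZ target signature moved both ways. PTPN14, also of that signature, was counted in the kinase list and not here. In HCC1937 4 rose, 8 fell and 3 did not pass, with a median log2 fold change of -0.93, and in MDA-MB-231 4 rose, 6 fell and 5 did not pass, with a median of -0.16. The shares of all tested genes given for the kinase list apply here too, 32.7% higher and 39.1% lower in HCC1937 and 33% and 32.8% in MDA-MB-231, and the MDA-MB-231 counts lie near them. With the offset 3 rose and 8 fell in HCC1937 (median -0.44, against 30.5% and 36.8% of tested genes), while 8 rose and 5 fell in MDA-MB-231 (median 0.36, against 31.6% and 33.4%). AXL, a receptor tyrosine kinase, rose in both lines, with 638, 630 and 640 CPM in HCC1937 with extract against 232, 238 and 231 CPM in HCC1937 control, and 1115, 1342 and 1308 CPM in MDA-MB-231 with extract against 495, 493 and 501 CPM in MDA-MB-231 control. The log2 fold change of AXL was 1.45 ± 0.08 in HCC1937 (SE; edgeR adjusted p = 3.06e-08) and 1.34 ± 0.08 in MDA-MB-231 (adjusted p = 7.72e-08), and 1.08 and 1.13 with the offset. FJX1, a secreted relative of Drosophila four-jointed, rose in HCC1937 (2.19, edgeR adjusted p = 8.37e-08; 1.36 with the offset). It rose in MDA-MB-231 too (1.61, edgeR adjusted p = 7.87e-07; 0.93 with the offset). The stress-inducible GADD45A rose in MDA-MB-231 (1.03, edgeR adjusted p = 5.56e-07; 0.36 with the offset). In HCC1937 GADD45A rose as well (0.78, edgeR adjusted p = 5.19e-06), but was not called with the offset (-0.007). The matrix protein CCDC80 (-2.33, edgeR adjusted p = 2.91e-09) and the ARF regulator ASAP1 (-1.44, adjusted p = 1.55e-06) fell in HCC1937, at -0.91 and -0.58 with the offset. In MDA-MB-231 neither was called without the offset (0.13 and -0.16), and both were called higher with it (1.45 and 0.46). In MDA-MB-231 the ectonucleotidase NT5E fell (-1.02, edgeR adjusted p = 1.18e-06). In HCC1937 NT5E was not called (0.03), and was called higher with the offset (0.44). The Rac activator DOCK5 fell in HCC1937 (-1.60, edgeR adjusted p = 1.87e-06; -0.65 with the offset, called). DOCK5 fell in MDA-MB-231 too (-0.97, edgeR adjusted p = 0.000166), but was not called there with the offset (adjusted p = 0.0718).

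**Figure D5:**
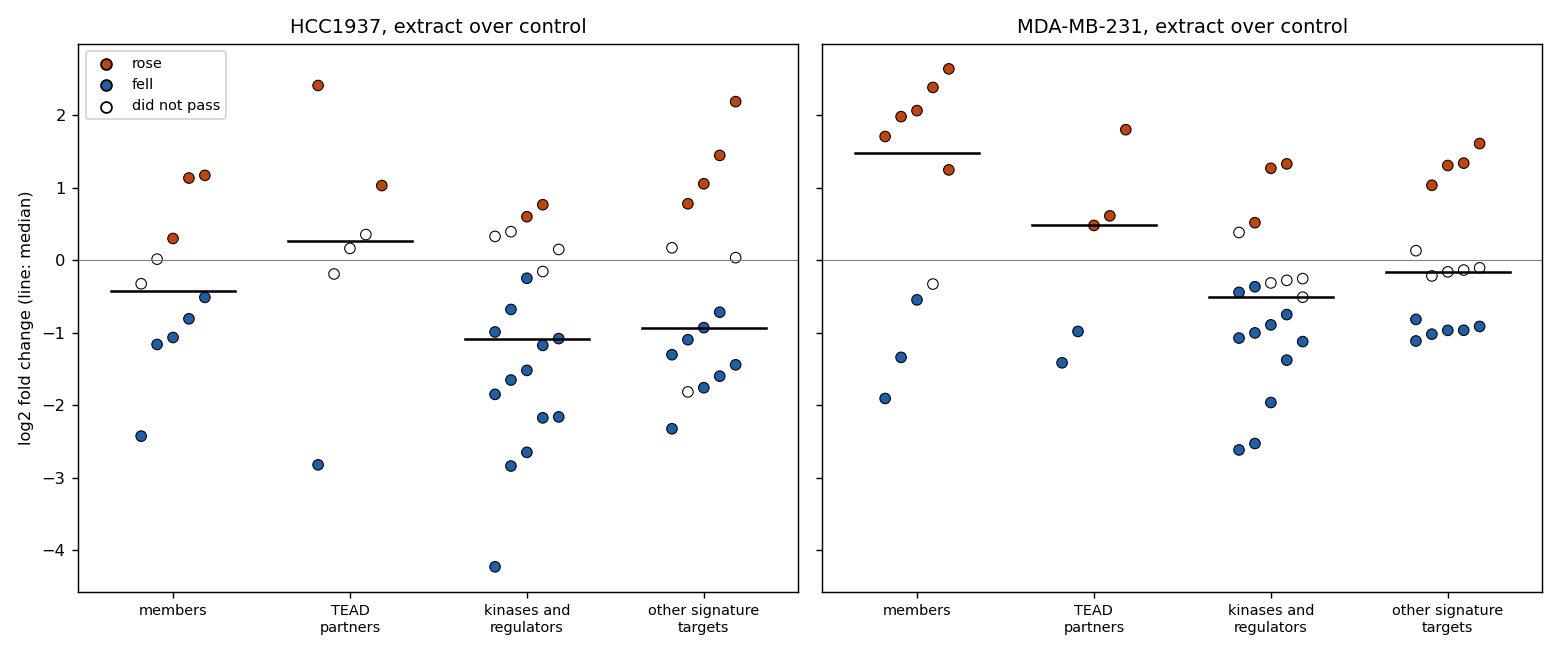
Log2 fold change of extract over control for the 10 members and for the 3 lists of other pathway genes in HCC1937 and MDA-MB-231, without the offset; red points rose, blue points fell, open points did not pass, and lines are medians. The members' median is 1.48 in MDA-MB-231 and -0.42 in HCC1937, and TEAD4 is the top point of the TEAD partners in both lines.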

How the data were processed

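Messenger RNA of 12 libraries (3 in each of 4 groups) was captured on poly-T beads, per the labels' protocols. Reads were checked with FastQC 0.12.1, trimmed with fastp 0.23.4 and quantified with Salmon 1.10.3 on GRCh38, per the submitters' processing notes, which also name DESeq2 and R 4.4.1. The sources used here do not name the annotation or the step from transcripts to genes. The authors deposited expected counts per gene, not scaled for depth, and 52.8% of values were not whole numbers. They were rounded here. Lines and treatments were read from sample titles, since the cell line field runs on in number from library to library.

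The rounded counts went into edgeR 4.0.16 in R 4.3.3 (filterByExpr, TMM, 1 quasi-likelihood fit of 4 groups) and Benjamini-Hochberg adjustment over 14133 genes, called at an adjusted p under 0.05. SE is the fold change over the root of F. Transcript length and GC content came from GENCODE release 29 (longest protein-coding transcript; 99.4% of tested genes). The offset was a smooth surface per library (mgcv 1.9.3), fitted on genes over 5 CPM. DESeq2 1.42.0 was an alternative. Both fits were tested on simulated data, after which the surface was limited to such genes. For a library, 3 counts correspond to 0.0990 to 0.213 CPM, which covers counting error only.

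All 10 members and, per list and line, the 2 called genes of smallest p in each direction are named. Members and lists were chosen with earlier results of these data known.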

Additional observations from a re-analysis of the deposited data

Results flagged for a closer look

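For 7 of the 10 members the extract effect differed between the lines, by the interaction test in edgeR (HCC1937 minus MDA-MB-231, log2). F3 (-3.45, adjusted p = 1.9e-09) and ANKRD1 (-3.45, adjusted p = 9.83e-08) fell in all 3 HCC1937 extract libraries and rose in all 3 of MDA-MB-231, relative to all controls of the line. AJUBA (-1.77, edgeR adjusted p = 2.74e-07), AMOTL2 (-1.69, adjusted p = 0.00258) and CCN2 (-0.81, adjusted p = 0.000427) rose more in MDA-MB-231. YAP1 (-0.62, edgeR adjusted p = 0.0152) fell more in HCC1937, and WWTR1 (0.83, adjusted p = 0.000137) fell more in MDA-MB-231. All 7 differences had the same sign and passed with the length and GC offset and without E7. Concentration and medium differed between the lines and their part in these differences cannot be told apart.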

How the results depend on the processing

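No paired analysis was possible because no library number is shared between groups. Leaving out each library in turn gave 3 members higher and 5 lower in HCC1937, 6 higher and 3 to 4 lower in MDA-MB-231, 1 higher and 6 to 9 lower for the difference of effects, and 3 higher and 6 lower between the controls. The shares of all tested genes called in these fits were not counted. Of 550 member values under alternatives, 523 kept sign and call, 12 gained a call, 1 lost it and 14 changed sign. With the offset YAP1 in MDA-MB-231 was at 0.047 (0.097 without E7, a combination chosen after seeing the data), and in HCC1937 WWTR1 at 0.80, AMOTL2 at -0.46 and AJUBA at -0.070. On library totals AMOTL2 (-0.44) and AJUBA (-0.15) in HCC1937 changed sign too. For the difference of effects, CCN1 was at 0.00072 with RLE size factors, and LATS2, at 0.0043 as reported, was at -0.19 on library totals, -0.024 with the offset, -0.14 with the offset without E7, and between -0.21 (without E7) and 0.18 (without E9) over libraries left out, with -0.0039 without E1 and -0.024 without E27. Of the other pathway genes, each in the line for which the rule named it, TEAD2 (-0.040) and VGLL3 (0.60, or 0.73 without E7) changed sign in MDA-MB-231 with the offset. Some genes changed sign in a line for which the rule did not name them, among them LATS1 (0.36) and ASAP1 (0.46) in MDA-MB-231 with the offset. The cause of these changes was not tested. ANKRD1 in HCC1937 with extract rests on 204 reads, the lowest total of a member in any group.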

Other observations

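Among 10834 genes averaging 5 CPM or more, those whose log2 CPM, centred over the 12 libraries, lay nearest to CCN2 were CCN1 (Euclidean distance 1.03), RFTN1 (1.22) and FGF1 (1.24). RFTN1 averaged 7.90 CPM in HCC1937 with extract and 2.06 in HCC1937 control, and 114 in MDA-MB-231 with extract and 41.4 in MDA-MB-231 control. Nearest to YAP1 were EFCAB14 (0.244), CCDC25 (0.342) and SNRK (0.346). EFCAB14 averaged 48.8 CPM in HCC1937 with extract and 108 in HCC1937 control, and 62.2 in MDA-MB-231 with extract and 96.0 in MDA-MB-231 control.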
